A study of Mus musculus with 16 samples.

Results

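The 10 genes described here were Gabra6, Cbln1, Cbln3, Fat2, Zic1, Neurod1, Pcp2, Car8, Il16 and Il20rb, found by symbol among the 24062 genes of the deposited count table and the 23991 of the FPKM table, and all 10 were in both. They were brought together as genes of cerebellar neurons plus a cytokine (Il16) and a cytokine receptor subunit (Il20rb). All were chosen by their measured levels in the water-only and ethanol-only mice. Differences from the water-only mice are therefore given as descriptions without a test. The question they address is how much of a difference between groups in whole brain lay in how much cerebellar RNA each brain gave. Whole brains with cerebellum were taken on postnatal day 45 from 16 female C57BL/6J mice, an inbred strain, with 1 library per mouse, nothing pooled, and 4 mice in each of 4 groups. The WW group drank only water. The NW group had nicotine at 200 µg/ml in place of water for 22 h per day. The Water-Ethanol group was offered 20% v/v ethanol under drinking-in-the-dark, a protocol of short sessions in the dark phase, on 4 days, with sessions of 2 h and a last session of 4 h before dissection. The NE group received both. All groups shared the session schedule, and the nicotine bottles were away during the sessions. Mice are named by group and number, such as WW 21.

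The cerebellum holds a dense layer of granule neurons, whose axons, the parallel fibres, make excitatory synapses on the dendrites of Purkinje neurons, the output cells of the cerebellar cortex. Genes used almost wholly in these cells act, in RNA from whole brain, as a gauge of how much cerebellar RNA a library holds. In such bulk samples, fewer cells of a type and less RNA per cell cannot be told apart. Levels of one gene across mice are given as CPM, counts scaled to the total of the library and its TMM factor, and levels are compared between genes only as FPKM, fragments scaled to transcript length and library.

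For the members that had an entry among the RefSeq promoter sequences of build GRCm38.p6 (8 of 10), the 250 bases before the annotated start were searched on both strands for the E-box words CAGATG and CAGCTG, which bHLH factors such as Neurod1 can bind, and for CCTGCTG, a core word of ZIC factors. The 3 words do not overlap each other in the windows shown. Il16 and Il20rb are shown because they hold CAGATG more than once, Pcp2 because it holds it once, and Gabra6 because, as the granule neuron gene of reference, it holds none. Capitals mark the words found, and each line reads 5′ to 3′ on the minus strand.
Il16, chr7:83735540-83735789: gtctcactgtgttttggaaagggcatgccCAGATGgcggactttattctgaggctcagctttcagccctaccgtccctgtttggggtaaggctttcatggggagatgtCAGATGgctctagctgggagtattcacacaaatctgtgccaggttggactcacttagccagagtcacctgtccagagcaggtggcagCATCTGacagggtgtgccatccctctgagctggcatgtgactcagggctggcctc
Il20rb, chr9:100486474-100486723: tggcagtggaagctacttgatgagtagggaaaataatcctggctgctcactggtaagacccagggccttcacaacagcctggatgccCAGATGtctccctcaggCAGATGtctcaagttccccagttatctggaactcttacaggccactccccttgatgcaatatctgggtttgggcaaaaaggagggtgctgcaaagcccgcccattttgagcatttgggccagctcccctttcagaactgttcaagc
Pcp2, chr8:3625548-3625797: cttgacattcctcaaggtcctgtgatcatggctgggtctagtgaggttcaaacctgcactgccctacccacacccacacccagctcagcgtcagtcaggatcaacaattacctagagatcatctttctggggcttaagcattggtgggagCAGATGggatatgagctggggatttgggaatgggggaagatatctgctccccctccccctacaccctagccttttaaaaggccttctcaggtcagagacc
Gabra6, chr11:42321073-42321322: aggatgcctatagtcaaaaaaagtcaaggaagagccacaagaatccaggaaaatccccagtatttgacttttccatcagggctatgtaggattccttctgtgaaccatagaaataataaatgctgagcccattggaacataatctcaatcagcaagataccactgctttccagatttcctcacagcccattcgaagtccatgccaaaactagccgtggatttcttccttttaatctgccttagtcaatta
In the Il16 window, the first of its 3 start sites in RefSeq, CAGATG began 221 and 142 bases before the start, and its reverse complement 55 bases before it. In Il20rb it began 163 and 146 bases before the start, and in the first of 4 Pcp2 windows 100 bases before it. CAGATG was in 14.4% of all 32851 promoter windows of this length, at least 2 copies were in 1.32% and at least 3 in 0.110%. CAGCTG was in 13% of them and CCTGCTG in 8.44%, and neither was in the window of any member. The windows of Gabra6, Cbln3, Fat2, Zic1 and Neurod1 held none of the 3 words. These matches are letters in a window and not measured sites.

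All 10 members lie on the minus strand, where 49.8% of the genes of the count table lie. Only Pcp2 shares exon bases with another gene of the table, 188 bases with Pet100 on the other strand. Pet100 stood between 9.20 and 13.02 CPM and was not lower in the mice described next. Every member passed the filter on low counts in every comparison, with counts per mouse from 61 (Il20rb) to 11644 (Car8). Total counts per mouse ran from 27100352 to 32880979.

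A pair of libraries stood apart before any comparison of groups. WW 21 and NW 10 had lower levels than the other 3 mice of their group for all 10 members. WW 21 held a median of 25.2% of the mean of the other WW mice over the 8 cerebellar members (all but Il16 and Il20rb), and NW 10 held 41.1% of that of the other NW mice. Over all 15592 genes that passed the filter the same medians were 99.8% and 99.7%. All 10 members were at or under 50% in WW 21 and 7 of 10 in NW 10, where 1.46% and 1.10% of all genes were. In the other 14 mice no member was that low. WW levels were among those that chose the members, so the shares in WW 21 are descriptions.

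The rest of the cerebellar genes moved with them. Of 29 further genes known for their use in cerebellar cells, 15 were at or under 50% in WW 21 and 10 in NW 10, with medians of 49.8% and 58.3%. The 11 granule neuron genes had medians of 66.8% and 68.0%, the 12 Purkinje neuron genes 49.0% and 54.9%, and the 6 genes of other cerebellar cells 38.4% and 50.5%. The 3 most abundant granule genes, Etv1, Cadps2 and Grm4, were at 69.1%, 71.6% and 47.9% in WW 21 and at 78.3%, 83.5% and 58.3% in NW 10. The 3 most abundant Purkinje genes, the calcium release channel Itpr1, Rgs8 and the calcium buffer Calb1, were at 59.8%, 55.4% and 60.1% and at 72.3%, 63.9% and 67.9%. Of the other cerebellar cells, the Bergmann glia gene Gdf10, A2m and the interneuron factor Tfap2b were at 36.7%, 40.0% and 49.6% and at 46.9%, 54.1% and 67.7%. Each of these 9 was thus lower than the mean of the other mice of its group, most by less than the members. En2, a homeobox gene of the cerebellum, was at 26.8% and 38.4%, and the Purkinje gene Ppp1r17 at 24.1% and 40.9%.

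Outside the cerebellar lists, the 5 brainstem genes had medians of 28.7% in WW 21 and 14.7% in NW 10, though single genes of that list reached 113% and 89.8%. Among the 29 cerebellar genes, the glycine transporter Slc6a5 of cerebellar and hindbrain inhibitory neurons stood at 4.97 CPM in WW 21 and 3.54 CPM in NW 10, against 10.1 to 18.4 CPM in the other 14 mice. The 5 genes of cortical and hippocampal excitatory neurons had medians of 109% and 112%, the 6 choroid plexus genes 84.3% and 69.4%, and the 4 oligodendrocyte genes 102% and 92.3%. NW 10 also held the highest level of the ribosomal RNA gene Rn45s, 40561 CPM against 2777 to 13408 CPM in the 14 mice, and of the pituitary hormone genes Prl, at 8.15 CPM, and Gh, at 5.79 CPM, which were at most 1.63 and 0.391 CPM elsewhere. The part of these in the members' levels was not tested.

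**Figure D1:**
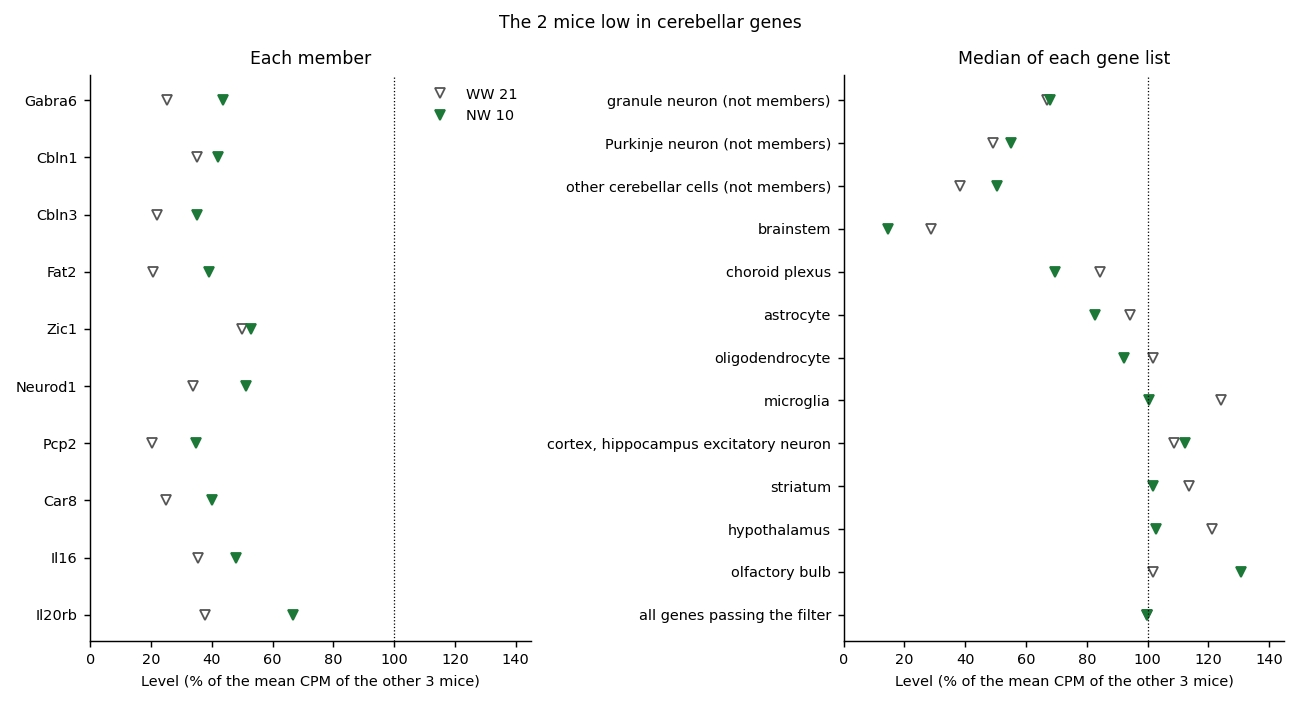
Level of each member (left) and the median of each gene list (right) in WW 21 (open triangles) and NW 10 (filled triangles), as a percent of the mean CPM of the other 3 mice of the same group; the dotted line is 100%. The members lie between 20.4% and 66.6%, the 3 cerebellar lists and the brainstem list between 14.7% and 68.0%, and the striatal, cortical and hypothalamic lists between 102% and 121%.

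Among the granule neuron members, Gabra6 (chr11:42306437-42321072) encodes the subunit that marks the GABA-A receptors of these cells. Gabra6 was measured at 141, 152 and 134 CPM in WW 18, 19 and 20 and at 36.2 CPM in WW 21. NW 7, 8 and 11 had 119.9, 130.1 and 134 CPM and NW 10 had 55.9 CPM. Levels were 138, 128, 139 and 137 CPM in the Water-Ethanol mice and 120.1, 116, 124 and 134 CPM in the NE mice. The 2 low mice lay below all others, the 3 remaining WW mice overlapped the Water-Ethanol mice, and the NE mice reached from below the lowest of these WW mice up to its level. Mean levels were 116 ± 53.6 CPM in WW and 136 ± 4.90 CPM in Water-Ethanol (SD, n = 4), and 142 ± 9.11 CPM in WW without WW 21 (n = 3). The fitted log2 fold change of Water-Ethanol against WW was 0.23 ± 0.30 (SE) with all mice and -0.065 ± 0.045 without WW 21, so its sign rested on that mouse.

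Cbln1 (chr8:87468853-87472592) is a secreted organiser of parallel fibre synapses and Cbln3 (chr14:55878920-55884256) is released in complex with it. Cbln1 was measured at 137, 143 and 138 CPM in WW 18, 19 and 20 and at 49.1 CPM in WW 21. It stood at 167, 182 and 141 CPM in NW 7, 8 and 11 and at 68.5 CPM in NW 10. With ethanol alone the 4 mice had 143, 123, 139 and 140.1 CPM, and the NE mice had 143, 141, 148 and 161 CPM. NW 7 and NW 8 were the highest mice for Cbln1, the other nicotine mice overlapped the rest, and WW 21 and NW 10 were lowest. Cbln3 followed the same order of mice at its ends, with 270.2 CPM in NW 8, 90.7 CPM in NW 10 and 52.2 CPM in WW 21, and the other mice lay between 206 and 265 CPM. Against WW, the log2 fold change of Cbln1 in NW was 0.25 ± 0.32 with all mice and 0.23 ± 0.078 without both low mice, and in NE 0.34 ± 0.24 with all mice and 0.091 ± 0.046 without WW 21.

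Fat2 (chr11:55250610-55312257) encodes a giant atypical cadherin of granule cells and their parallel fibres. Fat2 was measured at 197, 226 and 177 CPM in WW 18, 19 and 20 and at 41.7 CPM in WW 21. NW 7, 8 and 11 had 191, 228 and 178 CPM and NW 10 had 77.5 CPM. The Water-Ethanol mice had 186, 138, 172 and 157 CPM and the NE mice 162, 169.8, 171 and 223 CPM. After the 2 low mice, Water-Ethanol 14 was lowest, and NW 8, WW 19 and NE 5 were highest, so each of these 3 groups held a mouse near the top. Among the members, Fat2 varied most over the 14 other mice after Il20rb, with a coefficient of variation of 14.5%. The Water-Ethanol difference from WW was 0.031 ± 0.34 with all mice and -0.29 ± 0.088 without WW 21.

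Zic1 (chr9:91360345-91365799), a zinc finger factor of granule cell precursors and granule cells that other brain regions also express, was the steadiest member. Over the 14 other mice it lay between 146 CPM in Water-Ethanol 14 and 171 CPM in Water-Ethanol 16, a coefficient of variation of 4.74%, against 18.2% over all 16. WW 21 had 81.3 CPM and NW 10 85.5 CPM, 49.9% and 52.8% of their groups, the smallest shortfall of the 8 cerebellar members. Its Water-Ethanol difference from WW was 0.21 ± 0.17 with all mice and 0.014 ± 0.052 without WW 21.

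Neurod1 (chr2:79452641-79456636), a bHLH factor of granule neurons that also serves hippocampal and cortical neurons, was the member with the lowest NW level relative to WW. Neurod1 was measured at 90.4, 95.0 and 80.9 CPM in WW 18, 19 and 20 and at 30.2 CPM in WW 21. It stood at 59.7, 69.6 and 81.6 CPM in NW 7, 8 and 11 and at 36.0 CPM in NW 10. Levels were 88.0, 79.5, 86.8 and 94.4 CPM in the Water-Ethanol mice and 86.7, 76.9, 78.0 and 78.0 CPM in the NE mice. NW 7 and NW 8 were below all mice outside the NW group except WW 21, while NW 11 lay among the others, and NE overlapped WW and Water-Ethanol. Without both low mice the NW difference from WW was -0.34 ± 0.098, against -0.26 ± 0.31 with all mice. NE exceeded NW by 0.37 ± 0.17 (adjusted p = 0.423, edgeR quasi-likelihood test) with all mice and by 0.19 ± 0.088 (adjusted p = 0.344) without NW 10. In the exact two-sided permutation test p was 0.114 with all 8 mice and 0.229 without NW 10.

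The Purkinje neuron members had the same pair of low mice. Pcp2 (chr8:3623371-3625545) encodes a regulator of G protein signalling found in Purkinje and retinal bipolar cells, and Car8 (chr4:8141493-8239041) a carbonic anhydrase-related protein that binds the calcium channel Itpr1. Pcp2 was measured at 31.7, 35.9 and 29.2 CPM in WW 18, 19 and 20 and at 6.60 CPM in WW 21. NW 7, 8 and 11 had 38.5, 33.5 and 39.7 CPM and NW 10 had 12.99 CPM. With ethanol alone the 4 mice had 36.6, 31.0, 32.2 and 37.1 CPM, and the NE mice had 32.4, 35.9, 35.4 and 35.3 CPM. WW 21 was at 20.4% of the other WW mice, the lowest share of any member in that mouse, and the 14 other mice of all groups overlapped. Car8 had 88.0 CPM in WW 21 and 132 CPM in NW 10, and 305 to 379 CPM in the others. Its Water-Ethanol mice lay within 329.7 to 348 CPM, inside the range of WW 18, 19 and 20. The Water-Ethanol difference from WW went from 0.40 ± 0.32 to 0.088 ± 0.077 for Pcp2 and from 0.26 ± 0.31 to -0.041 ± 0.048 for Car8 when WW 21 was left out.

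**Figure D2:**
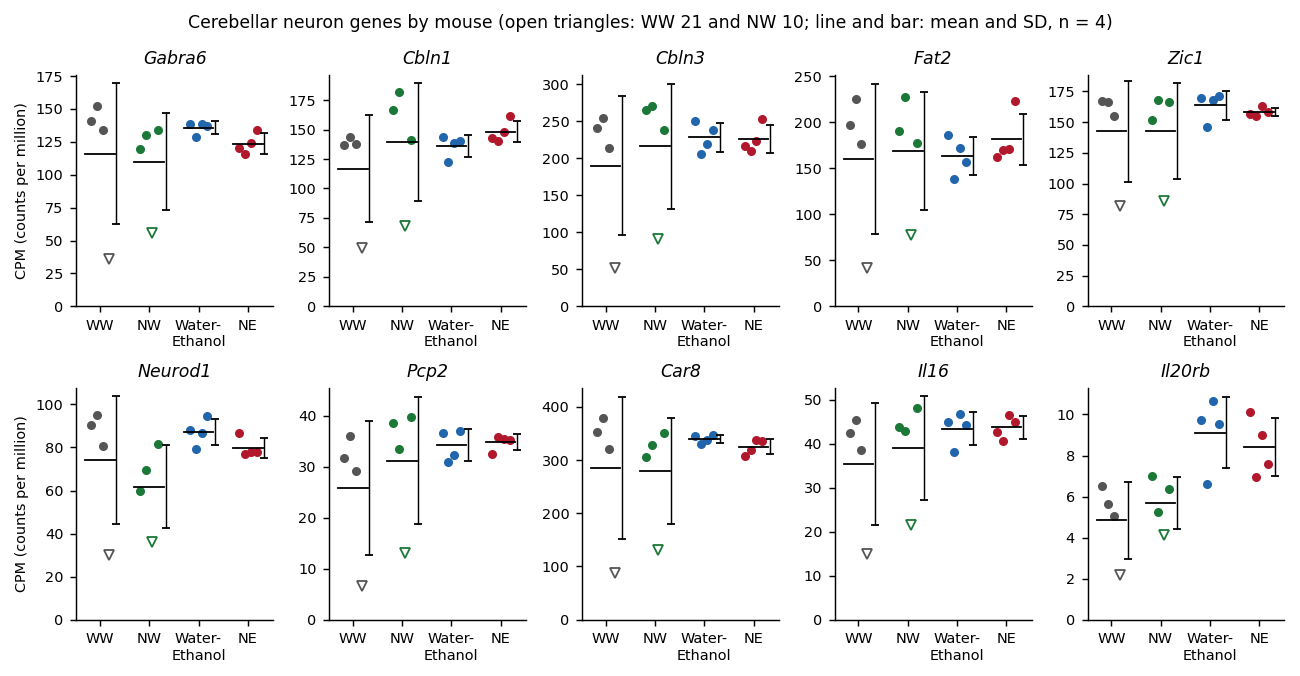
Level of each of the 10 genes in each mouse, in CPM from 0, by group; circles are mice, open triangles are WW 21 and NW 10, lines are group means and bars are SDs (n = 4). The open triangles are the lowest points of all groups in every panel, and for Il20rb the Water-Ethanol mice (6.61 to 10.6 CPM) and NE mice (6.94 to 10.1 CPM) lie above all 4 WW mice.

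Il16 (chr7:83643063-83735490) encodes a cytokine that binds Cd4, with a longer neuronal form known from cerebellar granule and hippocampal neurons. Il16 was measured at 42.4, 45.4 and 38.6 CPM in WW 18, 19 and 20 and at 15.01 CPM in WW 21. It stood at 43.7, 42.8 and 48.0 CPM in NW 7, 8 and 11 and at 21.5 CPM in NW 10. The Water-Ethanol mice had 44.9, 38.0, 46.6 and 44.2 CPM and the NE mice 42.6, 40.6, 46.6 and 44.9 CPM. The groups overlapped apart from the 2 low mice, and Il16 stood at 35.6% of the other WW mice in WW 21 and 48.0% of the other NW mice in NW 10. Its difference from WW was 0.30 ± 0.23 in Water-Ethanol and 0.30 ± 0.24 in NE with all mice, and 0.048 ± 0.070 and 0.052 ± 0.063 without WW 21.

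Il20rb (chr9:100457719-100486473) encodes the receptor subunit that pairs with Il20ra or Il22ra1 to bind Il19, Il20 and Il24. Il20rb was measured at 6.51, 5.63 and 5.06 CPM in WW 18, 19 and 20 and at 2.16 CPM in WW 21. NW 7, 8 and 11 had 7.01, 5.26 and 6.35 CPM and NW 10 had 4.13 CPM. Levels were 9.71, 6.61, 10.6 and 9.52 CPM in the Water-Ethanol mice and 10.1, 6.94, 9.00 and 7.58 CPM in the NE mice. All Water-Ethanol and all NE mice lay above all WW mice, by little at the closest points (Water-Ethanol 14 against WW 18), and the NW mice overlapped both WW and the ethanol groups. Mean levels were 4.84 ± 1.88 CPM in WW, 5.69 ± 1.26 CPM in NW, 9.12 ± 1.74 CPM in Water-Ethanol and 8.41 ± 1.42 CPM in NE (SD, n = 4). Of all genes tested, 5% lay wholly higher in Water-Ethanol than in WW and 5.17% wholly higher in NE, and as Il20rb was chosen with these values known nothing is read from its place among them. The difference from WW was 0.92 ± 0.24 in Water-Ethanol and 0.80 ± 0.24 in NE with all mice, and 0.68 ± 0.14 and 0.56 ± 0.14 without WW 21. With the mean log2 CPM of 11 other granule neuron genes as a covariate these were 0.55 ± 0.11 and 0.50 ± 0.12. Il16 came to -0.052 ± 0.055 in Water-Ethanol in the same fit. WW 21 was the only mouse of these fits low in the 11 genes, so they are not separate from the fits without WW 21. Both genes were chosen with values of these groups known, so nothing is read from how they differ here.

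The partners of these 2 genes were taken from a fixed list of 9. Of the subunits that can complete the receptor, Il20ra was at 0.358 to 1.03 CPM and Il22ra1 at 0.0336 to 0.399 CPM. The ligands Il19, Il20 and Il24 had at most 2, 3 and 0 counts in any mouse, which is at or under a limit of 3 counts. Cd4 was at 4.84 to 8.23 CPM, and the T cell genes Cd3e, Cd3g and Cd8a had at most 4 counts in any mouse. The kinase Jak1 and the factor Stat3, through which the receptor signals, were at 198 to 226 CPM and 60.2 to 67.5 CPM. Of the 9 partners 5 passed the filter (Cd4, Cd9, Il20ra, Jak1 and Stat3). The edgeR quasi-likelihood test called 0 of their 20 tests in the 4 comparisons (smallest adjusted p 0.244), and 3 had an unadjusted p under 0.05. Over all genes, 0% to 0.457% were called and 8.44% to 19.3% had such an unadjusted p. DESeq2 called 0 of 15 (smallest adjusted p 0.238), against 0.765% to 4.45% of all genes. With shares this low, the absence of calls says nothing particular about the partners.

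Per length of transcript, the members spanned a wide range of levels. Medians over the 14 other mice were 113 FPKM for Pcp2, 66.2 for Cbln1, 61.4 for Car8, 56.0 for Gabra6, 53.0 for Cbln3, 51.2 for Zic1, 35.2 for Neurod1, 12.4 for Fat2, 9.20 for Il16 and 2.90 for Il20rb. The ranges of neighbours from Cbln1 to Zic1 overlapped, Pcp2 lay wholly above the others, and Neurod1 and Il20rb each lay apart from their neighbours, while the ranges of Fat2 and Il16 (9.77 to 15.9 and 7.96 to 9.85 FPKM) overlapped.

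Over the members as a whole, the comparisons with WW changed with the low mice. In Water-Ethanol against WW all 10 members were fitted higher with all mice (median log2 fold change 0.25) and 4 of 10 without WW 21 (median -0.024). In NE against WW all 10 were higher (median 0.22), and 4 of 10 without WW 21 (median -0.051). In NW against WW 7 were higher (median 0.10), 1 without WW 21 (median -0.16), 9 without NW 10 (median 0.31) and 5 without both (median 0.041). Medians over all genes tested were between 0.0015 and 0.0096 in these fits with all mice. These comparisons share the WW mice.

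NE against NW used neither the WW nor the Water-Ethanol mice, whose levels chose the genes. Genes and comparisons were still chosen with earlier results of these data known, so its p-values are not those of an independent test. With all 8 mice, all 10 members were fitted higher in NE (median 0.16), from 0.065 ± 0.24 for Cbln3 to 0.56 ± 0.16 for Il20rb. No member was called: adjusted p-values of the quasi-likelihood test were 0.251 for Il20rb, 0.423 for Neurod1 and 0.714 to 0.936 for the other 8, where 0 of 15361 genes (0%) were called. At an unadjusted p under 0.05 there were 1830 genes (11.9%), DESeq2 called 93 of 12149 genes, and no member was among these 93 (Il20rb had an adjusted p of 0.0614). Without NW 10, Neurod1 and Il20rb stayed higher in NE and the other 8 turned to lower, from -0.19 ± 0.066 for Cbln3 to -0.012 ± 0.055 for Car8. For Il20rb the difference was 0.45 ± 0.14 (adjusted p = 0.210), and 3 of 4 NE mice lay above all NW mice both with and without NW 10. The groups did not overlap for 7.41% of all genes tested. Its exact two-sided permutation p was 0.0571 with all mice, where 0.0286 is the smallest that 4 against 4 allows, and 0.114 without NW 10, where it is 0.0571. The p-values measure the spread between mice of these libraries.

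**Figure D3:**
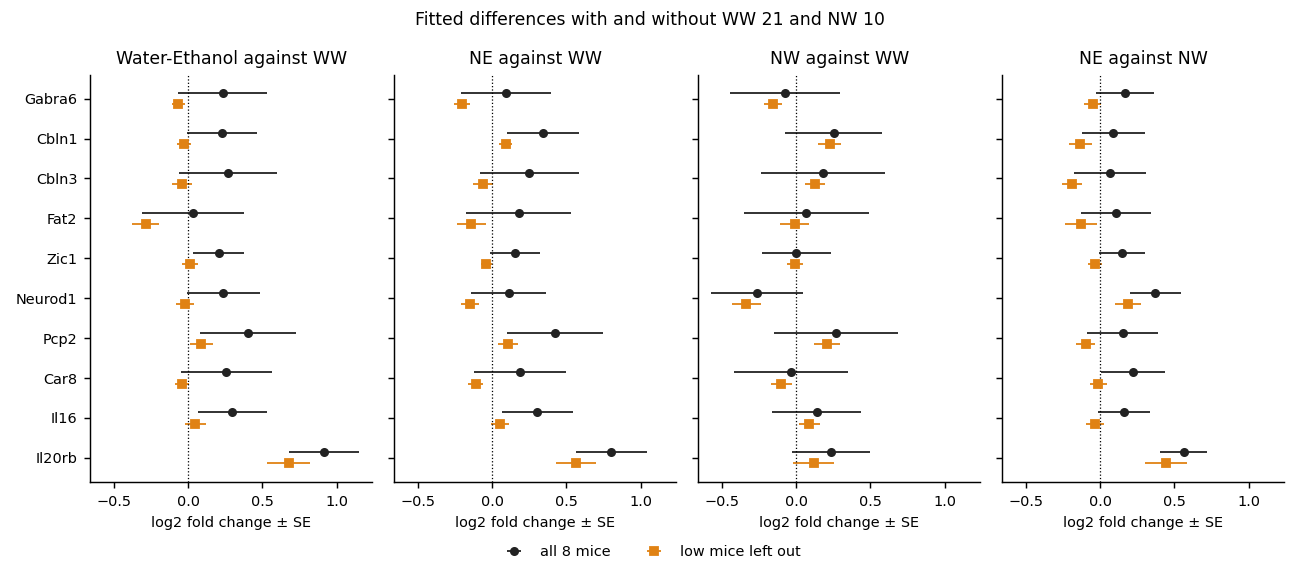
Fitted log2 fold changes of the 10 genes in 4 comparisons (edgeR, bars are SE), with all 8 mice (black circles) and without the low mice of that comparison (orange squares: without WW 21 in Water-Ethanol and NE against WW, without both in NW against WW, without NW 10 in NE against NW). The squares lie closer to 0 or below it with shorter bars for the cerebellar members, and Il20rb also moves closer to 0 but stays above it, at 0.68, 0.56, 0.12 and 0.45.

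The 29 other cerebellar genes had the same course. The quasi-likelihood test called 0 of 29 in each of the 4 comparisons, with percentages of all genes called of 0.457% for Water-Ethanol against WW, 0.313% for NE against WW, 0% for NW against WW and 0% for NE against NW. At an unadjusted p under 0.05 there were 4, 4, 2 and 0 of the 29 in that order, against 19.3%, 17.5%, 8.44% and 11.9% of all genes. DESeq2 called 1 of 29 (Zic4) in Water-Ethanol against WW and 0 of the 25, 23 and 25 that had an adjusted p in NE against WW, NW against WW and NE against NW, where it called 4.45%, 4.3%, 1.17% and 0.765% of all genes. Their median log2 fold change was 0.22, 0.18, 0.059 and 0.093, with 27, 24, 23 and 24 of 29 higher. Without WW 21 the median was 0.014 in Water-Ethanol and -0.028 in NE, and in NE against NW without NW 10 it was -0.071, with 7 of 29 higher. Zic4, a ZIC factor of the same family as Zic1, and Etv1, an ETS factor of granule cells, were the only genes of the list called without WW 21, in Water-Ethanol against WW, where 5.17% of all genes were called. Zic4 rose by 0.30 ± 0.063 (adjusted p = 0.0226) and Etv1 fell by 0.13 ± 0.035 (adjusted p = 0.0455) on the log2 scale in that fit. With all mice Zic4 differed by 0.44 ± 0.12 (adjusted p = 0.0858) and Etv1 by -0.017 ± 0.096 (adjusted p = 0.945).

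The granule level of a mouse was taken as the mean log2 CPM of the 11 granule neuron genes outside the members, and it lay at 4.58 in WW 21, 4.75 in NW 10 and 5.29 to 5.46 in the other 14 mice. Over the 12 treated mice, with each group centred on its mean, Pearson's r of the members with it ran from 0.71 (Il20rb) to 0.98 (Cbln3), and Spearman's rho from 0.51 to 0.99. Both values for Il16 were 0.97 and 0.86, and for Il20rb 0.71 and 0.51. As the Water-Ethanol levels were among those that chose the members, these correlations are descriptions without a test. Without NW 10, the mouse farthest from the others, r was 0.23 (Neurod1) to 0.78 (Cbln3), with 0.73 for Il16 and 0.69 for Il20rb. Without the 2 mice farthest from the median of the group-centred granule level (NW 10 and Water-Ethanol 14), r was 0.42 for Il16 and 0.38 for Il20rb. For the cerebellar members it was then -0.13 (Pcp2) to 0.69 (Cbln3), so the height of the correlations rested on these 2 mice.

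The level of Il16 and Il20rb was also set against the granule level of the same mouse. The log2 CPM of Il16 minus the granule level was 0.0037, 0.14, -0.027 and -0.66 in WW 18, 19, 20 and 21, 0.042, 0.016, -0.32 and 0.21 in NW 7, 8, 10 and 11, 0.030, -0.049, 0.11 and 0.020 in the Water-Ethanol mice and 0.012, 0.059, 0.13 and 0.050 in the NE mice. The 2 low mice were again lowest and the other mice of all groups overlapped. On this measure each of the 8 cerebellar members was also lowest in these 2 mice. Gabra6 stood at 0.60 in WW 21 and 1.05 in NW 10. The 11 granule genes fell less there (medians 66.8% and 68.0%) than the 8 members (25.2% and 41.1%). Subtracting the granule level thus left part of the cerebellar shortfall in place and is not a full adjustment for Il16 or Il20rb. Whether Il16 fell beyond that shortfall was not tested. For Il16, NE exceeded NW by 0.074 (exact permutation p = 0.657), and without NW 10 the difference was -0.029 (p = 0.743). For Il20rb the same measure was -2.69, -2.85, -2.94 and -3.42 in the WW mice, -2.59, -2.99, -2.68 and -2.69 in the NW mice, -2.17, -2.56, -2.01 and -2.19 in the Water-Ethanol mice and -2.05, -2.48, -2.24 and -2.50 in the NE mice. WW 21 was again the lowest of all mice, whereas NW 10 lay among the other NW mice. Every NE mouse lay above every NW mouse, and for 3.33% of all genes the 2 groups did not overlap on this measure. The mean difference of NE from NW was 0.42, higher in 4 of 4 NE mice, with an exact two-sided permutation p of 0.0286, the smallest possible, and 0.0571 after adjustment over the 2 genes. Without NW 10 it was 0.44 (exact permutation p = 0.0571, the smallest that 4 against 3 allows), again without overlap, as for 8.78% of all genes.

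**Figure D4:**
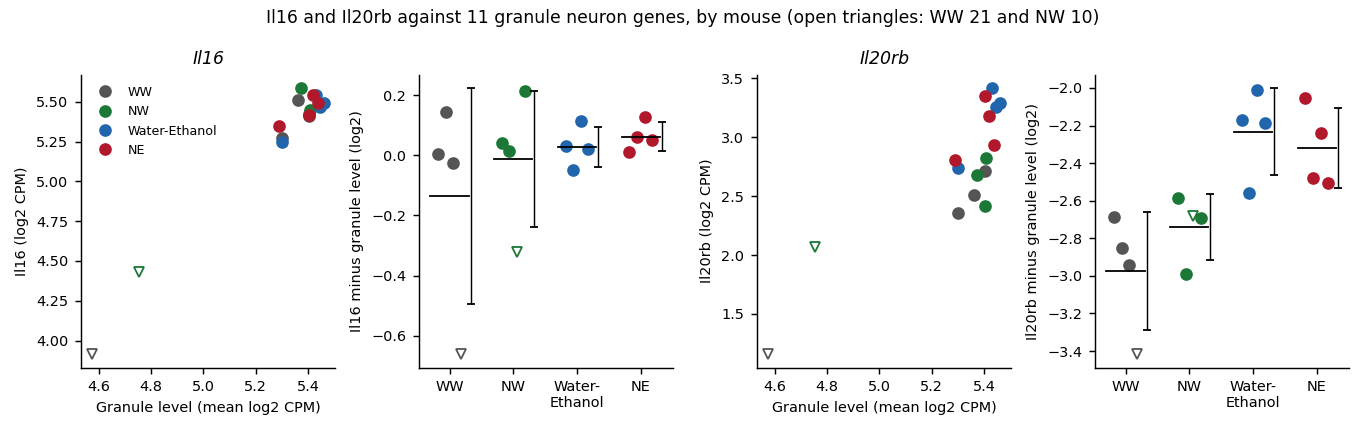
Log2 CPM of Il16 and of Il20rb against the granule level of the same mouse (scatter panels) and their difference from it by group (panels by group; lines are means and bars SDs, n = 4; open triangles are WW 21 and NW 10). For Il16 the triangles are the lowest points of their groups at -0.66 and -0.32, and for Il20rb WW 21, at -3.42, is again the lowest point while NW 10, at -2.68, lies among the NW mice.

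The genes whose levels ran most like the mean of the 8 cerebellar members over the 16 mice were Arhgef33 (Pearson's r 0.99), En2 (0.99), Chn2 (0.99), Homer3 (0.99), Atp2a3 (0.99), Ppp1r17 (0.99), Gdf10 (0.98) and Nrk (0.98). Of these, En2, Homer3, Ppp1r17 and Gdf10 were on the cerebellar lists. Over the 14 mice without WW 21 and NW 10 the same r was 0.26 (Gdf10) to 0.76 (Chn2). At the other end were Chd3 (-0.89), Wdr13 (-0.85), Dlx1as (-0.85), Agap2 (-0.84) and Dlx6 (-0.84), of which Dlx6 is a factor of forebrain interneurons. In WW 21 and NW 10 these 5 genes stood at 108% to 138% of the other mice of the group.

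The genes most like Il16 were Rgs8 (0.99), Pcp2 (0.99), Arhgef33 (0.99), Chd7 (0.99) and Homer3 (0.98), of which Pcp2 is a member and Rgs8 and Homer3 Purkinje neuron genes. Without WW 21 and NW 10 these r were 0.56 (Homer3) to 0.80 (Chd7). The r of Il16 with the 8 cerebellar members was then 0.15 (Neurod1) to 0.68 (Zic1), against 0.92 to 0.99 over all 16. For Il20rb they were Kcnc1 (0.97), Slc22a15 (0.96), Khnyn (0.96), Mtcl1 (0.96) and Rgl3 (0.95), none of them on a cerebellar list. Without WW 21 and NW 10 the r of these 5 genes was 0.86 to 0.91. In the same 14 mice the r of Il20rb with the 8 cerebellar members was -0.41 (Fat2) to 0.29 (Neurod1). Over all 16 mice it was 0.70 to 0.82. Both sets of 5 genes were picked for a high r over 16 mice that include these 14, unlike the 8 members. Their r in the 14 mice was thus partly fixed by the choice and cannot be set against that of the members. The mice share libraries and groups across these genes, so these r are descriptions.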

How the data were processed

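The members, gene lists and comparisons were chosen with earlier results of these data known. Reads were cleaned by the authors with Trimmomatic 0.32 and mapped with TopHat2 on GRCm38. The counts they deposited are whole numbers per gene and mouse with no normalization. The counting program is not given in the sources used here, and the labels name an unstranded library kit where the paper's methods name a stranded one, so reads of Pcp2 and Pet100 may not be separable. The authors also deposited FPKM from the Cufflinks tools, which carry no read depth. No column of per-mouse values was left out.

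Counts were scaled with TMM factors and tested with edgeR 4.0.16 in R 4.3.3 (quasi-likelihood test, fits of the 2 groups compared, default filter on low counts, Benjamini-Hochberg adjustment over all genes, threshold 0.05). The SE of a log2 fold change was its absolute value divided by the square root of F. Log2 CPM used a prior count of 2. Permutation tests used scipy 1.17.1, exact over mice. The permutation test planned for correlations with the granule level is not given, since Water-Ethanol levels were among those that chose the members. The genes named were the 10 members, the other cerebellar genes called in any comparison and the 3 most abundant of each such list, the 8 genes most and 5 least correlated with the cerebellar members, the 5 most like Il16 and Il20rb, and their partners. Rgs8 and others thus appear under several of these. Rn45s, Prl, Gh, Slc6a5 and Pet100 were named after their values were seen. Alternatives were RLE factors, DESeq2 1.42.0, no filter, a fit of all 16 mice, limma 3.58.1 on log2(FPKM + 1) or log2(FPKM + 0.1) with a mean FPKM filter of 1 or none, the granule level as covariate, other prior counts and reference genes, and leaving out each mouse. Fits without WW 21 and NW 10 together, and DESeq2 and limma without NW 10, were added after the data were seen. In counts simulated for NE against NW (15270 genes fitted), the test recovered 92% of 2-fold and 97% of 4-fold changes. Each gene was drawn on its own, so a shift shared by many genes of a mouse was not simulated. No change under 2-fold was planted, and the members' fitted differences were smaller, at most 0.56 on the log2 scale. The recovery therefore does not cover changes of their size.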

Additional observations from a re-analysis of the deposited data

Results flagged for a closer look

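Within each group of 4 mice, the gap of the highest or lowest mouse to its neighbour was divided by the range of the group, for the 10 members. Dixon's 95% critical value was passed in 3 of the 20 pairs of member and group in NW and NE. Chance alone passes about 1 group in 20. The members were measured in the same mice and are not independent, so the count cannot be judged against that rate. In WW and Water-Ethanol it was passed in 4 of 20, but levels in these groups chose the members, so those 4 are descriptions. In WW, mouse WW 21 was set apart below the others for Gabra6 (0.845), Cbln1 (0.933) and Zic1 (0.857). In Water-Ethanol, Water-Ethanol 14 was set apart at the low end for Zic1 (0.892). In NE, NE 5 was set apart at the high end for Fat2 (0.860), NE 2 at the high end for Neurod1 (0.881) and at the low end for Pcp2 (0.8294). NW 10, though lowest in its group for all 10 members, did not pass for any of them.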

How the results depend on the processing

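No paired analysis was possible because the mouse numbers in the labels are each used once and no number is shared between groups. The 29 other cerebellar genes had 0 calls in every comparison. In Water-Ethanol against WW the count became 1 with DESeq2 (Zic4) and 1 with the granule level as covariate (Etv1). In NE against WW it became 1 with that covariate (Etv1). Etv1 is itself among the granule neuron genes averaged into the granule level. These granule neuron genes were thus fitted against a covariate holding their own counts. Nothing is therefore read from whether they were called with it. Leaving out 1 mouse gave 0 to 2 calls in Water-Ethanol against WW, 2 only without WW 21, and 0 in the other comparisons. For the members no alternative brought a call in NE against NW; the sign turned to lower in NE in 32 of 180 alternative values, 31 of them with the granule level as covariate or with NW 10 left out and 1 without NE 5 (Fat2). With the covariate the log2 fold changes were -0.029 for Gabra6, -0.11 for Cbln1, -0.16 for Cbln3, -0.11 for Fat2, -0.012 for Zic1, -0.058 for Pcp2 and -0.019 for Il16. With limma on log2(FPKM + 1) and NW 10 left out they were -0.049 for Gabra6, -0.13 for Cbln1, -0.19 for Cbln3, -0.12 for Fat2, -0.032 for Zic1, -0.097 for Pcp2, -0.011 for Car8 and -0.026 for Il16, and with DESeq2 and NW 10 left out -0.049 for Gabra6, -0.13 for Cbln1, -0.19 for Cbln3, -0.13 for Fat2, -0.032 for Zic1, -0.098 for Pcp2, -0.011 for Car8 and -0.035 for Il16. Leaving out 1 mouse at a time gave -0.049 to 0.27 for Gabra6, -0.14 to 0.24 for Cbln1, -0.19 to 0.19 for Cbln3, -0.13 to 0.28 for Fat2, -0.032 to 0.23 for Zic1, 0.19 to 0.53 for Neurod1, -0.098 to 0.29 for Pcp2, -0.012 to 0.35 for Car8, -0.035 to 0.27 for Il16 and 0.45 to 0.68 for Il20rb. For Il20rb the adjusted p in this comparison ran from 0.0614 to 0.576 over the 18 alternatives. The correlations with the granule level kept their sign with RLE factors and a prior count of 5. Without the 2 mice farthest from the median of the group-centred granule level, r was 0.51 for Gabra6 and 0.55 for Cbln1. For Cbln3 it was 0.69, for Fat2 0.44, for Zic1 0.16, for Neurod1 -0.079 and for Pcp2 -0.13. Il16 came to 0.42 and Il20rb to 0.38. With 1 mouse left out r ran from 0.63 to 0.98 for Gabra6, 0.68 to 0.98 for Cbln1, 0.78 to 0.99 for Cbln3, 0.62 to 0.96 for Fat2, 0.66 to 0.98 for Zic1, 0.23 to 0.94 for Neurod1, 0.29 to 0.98 for Pcp2, 0.27 to 0.97 for Car8, 0.73 to 0.99 for Il16 and 0.66 to 0.79 for Il20rb, the lowest without NW 10 for all but Il20rb. Relative to the granule level, leaving out 1 mouse gave NE minus NW differences of -0.029 to 0.15 for Il16, negative without NW 10, and 0.33 to 0.48 for Il20rb, each with an exact permutation p of 0.0571, the smallest that 4 against 3 allows. With the 12 Purkinje genes as reference the Il20rb difference was 0.44 (exact permutation p = 0.0571). Differences of the members from WW carry no test. In 490 of 490 alternative values they moved by less than 1 SD of the mice. That SD was computed with WW 21 and NW 10 included, which widen it, so the count does not show that the differences were stable. Without WW 21 the number of members fitted higher than WW went from 10 to 4 in Water-Ethanol and in NE, and from 7 to 1 in NW. Il20rb, with 61 to 328 counts per mouse, is the member that depth limits most.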

Other observations

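The FPKM table held the same pair of low mice. Pcp2 stood at 22.1 FPKM in WW 21 and 40.0 FPKM in NW 10, against 93.7 to 128 FPKM in the other 14 mice. Cbln3 stood at 11.7 and 19.9 FPKM against 46.2 to 59.8 FPKM, and Il16 at 3.09 and 4.46 FPKM against 7.96 to 9.85 FPKM. Over all genes that passed the filter, 228 were at or under 50% of the other mice of the group in WW 21 and 171 in NW 10. Of these, 83 were shared, which is 36.4% of the first and 48.5% of the second, and they included 7 members (Gabra6, Cbln1, Cbln3, Fat2, Pcp2, Car8 and Il16). Both lists rest on single mice, so they carry no test.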
